A study of Homo sapiens with 20 samples.

Results

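The 7 APOBEC3 genes, APOBEC3A, APOBEC3B, APOBEC3C, APOBEC3D, APOBEC3F, APOBEC3G and APOBEC3H, encode cytidine deaminases that turn cytosine into uracil in single-stranded DNA. They were taken by gene name from the 57536 genes with a matched transcript, and the whole family was kept whatever its values. NGP is an established human neuroblastoma cell line, a tumour line of the developing sympathetic nervous system. Its cells were treated with nutlin-3 (10 samples, a racemic mixture at 8 µM) or with the ethanol vehicle (10 samples), and poly(A) RNA was sequenced as read pairs. Nutlin-3 keeps MDM2 from binding p53, so that p53 builds up and acts as a transcription factor. All 20 samples come from 1 cell line, and neither the time of treatment nor separate passages are given in the sources used here, so that p-values measure the spread between these cultures only.

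APOBEC3 proteins defend cells against retroviruses and mobile elements by deaminating their DNA copies. Some members, APOBEC3A and APOBEC3B above all, also deaminate the cell's own DNA and leave C-to-T changes in many tumours. Several members are known targets of p53 in human cells, while APOBEC3B is known to be held down after p53 activation through p21 and the DREAM complex, a repressor of cell cycle genes. In the body the family is most abundant in lymphoid and myeloid cells.

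The family lies in 1 row on chromosome 22 (GRCh38), every member on the forward strand. APOBEC3A (ENSG00000128383.14) spans chr22:38952741-38963184, APOBEC3B (ENSG00000179750.16) chr22:38982347-38992804 and APOBEC3C (ENSG00000244509.4) chr22:39014257-39020352. APOBEC3D (ENSG00000243811.12) follows at chr22:39021113-39033277, APOBEC3F (ENSG00000128394.17) at chr22:39040604-39055972, APOBEC3G (ENSG00000239713.9) at chr22:39077067-39087743 and APOBEC3H (ENSG00000100298.16) at chr22:39097224-39104067. Each protein has 1 or 2 deaminase domains that hold a zinc ion with a histidine and 2 cysteines, and the coding stretch from that histidine to the last cysteine shows how alike the genes are. The stretches below are read from the GENCODE transcripts, and capitals mark the His-x-Glu codons at the start and the Pro-Cys to Cys codons at the end.
APOBEC3C (exon 3, chr22:39017787-39017891): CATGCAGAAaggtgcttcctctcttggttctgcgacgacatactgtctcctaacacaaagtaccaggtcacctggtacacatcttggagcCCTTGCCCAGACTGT
APOBEC3F, second domain (exon 6, chr22:39052095-39052199): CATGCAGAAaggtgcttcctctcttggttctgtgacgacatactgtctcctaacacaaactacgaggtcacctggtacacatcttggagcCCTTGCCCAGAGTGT
APOBEC3A (exon 3, chr22:38961420-38961530): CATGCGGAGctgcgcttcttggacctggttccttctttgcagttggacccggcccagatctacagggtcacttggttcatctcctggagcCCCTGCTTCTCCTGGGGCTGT
APOBEC3G, second domain (exon 6, chr22:39086312-39086416): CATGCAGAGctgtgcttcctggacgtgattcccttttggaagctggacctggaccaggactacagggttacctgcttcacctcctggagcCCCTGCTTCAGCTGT
APOBEC3H (exon 3, chr22:39101246-39101350): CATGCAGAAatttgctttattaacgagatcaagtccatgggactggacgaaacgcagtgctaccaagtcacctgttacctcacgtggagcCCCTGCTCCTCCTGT

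The stretch of APOBEC3C differed from that of the second domain of APOBEC3F in 4 of 105 bases (96.2% identical). The second domain of APOBEC3D (chr22:39031715-39031819) had the same 105 bases as that of APOBEC3F, and the second domain of APOBEC3B (chr22:38991365-38991475) the same 111 bases as APOBEC3A. Over these stretches APOBEC3H had 61.9% identity to the second domain of APOBEC3G and 55.2% to APOBEC3C. The second domain of APOBEC3G had 57.1% to APOBEC3C. These likenesses bear on the counts, since kallisto assigns reads by stretches of 31 bases. Of the 31-base stretches of APOBEC3H 98.1% occurred in no other gene, and the share was 89.9% for APOBEC3C, 85.9% for APOBEC3G, 75.4% for APOBEC3F, 71.0% for APOBEC3A and 60.1% for APOBEC3B. For APOBEC3D it was 9.38%, because 82.1% of its stretches also lie in an annotated read-through gene of APOBEC3C and APOBEC3D (ENSG00000284554), whose 1 matched transcript had an estimated count of 0 in all 20 samples. The values of APOBEC3D, and the split between APOBEC3A and APOBEC3B, are therefore uncertain.

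Per sample the total estimated count was 14455477 to 19532971. Conditions were compared with the quasi-likelihood test of edgeR over the 36016 genes that had a count in both of them, and genes with a Benjamini-Hochberg adjusted p under 0.05 were called significantly differentially expressed (SDE). CPM are read counts scaled to the library size after TMM normalization, and log2 fold changes (LFC) are nutlin against vehicle. The treatment was visible in MDM2, itself a p53 target, which rose from 235.0 ± 32.8 to 5291 ± 377 CPM (SD, n = 10 each, LFC 4.49, edgeR adjusted p = 9.8e-30). CDKN1A, which encodes the cell cycle inhibitor p21, rose from 31.5 ± 10.8 to 1597 ± 157 CPM (LFC 5.66, adjusted p = 5.07e-25). The nutlin response was wide: 49.2% of the genes tested were SDE genes, 27.9% higher and 21.4% lower after nutlin.

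Against that background 2 of the 6 APOBEC3 genes tested were SDE genes, APOBEC3C and APOBEC3F, both higher after nutlin. APOBEC3A, APOBEC3B, APOBEC3D and APOBEC3G did not pass the test. APOBEC3H was left out by the requirement of 1 count in each condition, because no vehicle sample had a count. The members called are no larger a share than among all genes, and none had all its nutlin samples below all its vehicle samples, as 13.3% of genes did. The members differed in size of change. APOBEC3C changed more than APOBEC3F and APOBEC3G, and APOBEC3H went from no count in any vehicle sample to a count in every nutlin sample.

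**Figure D1:**
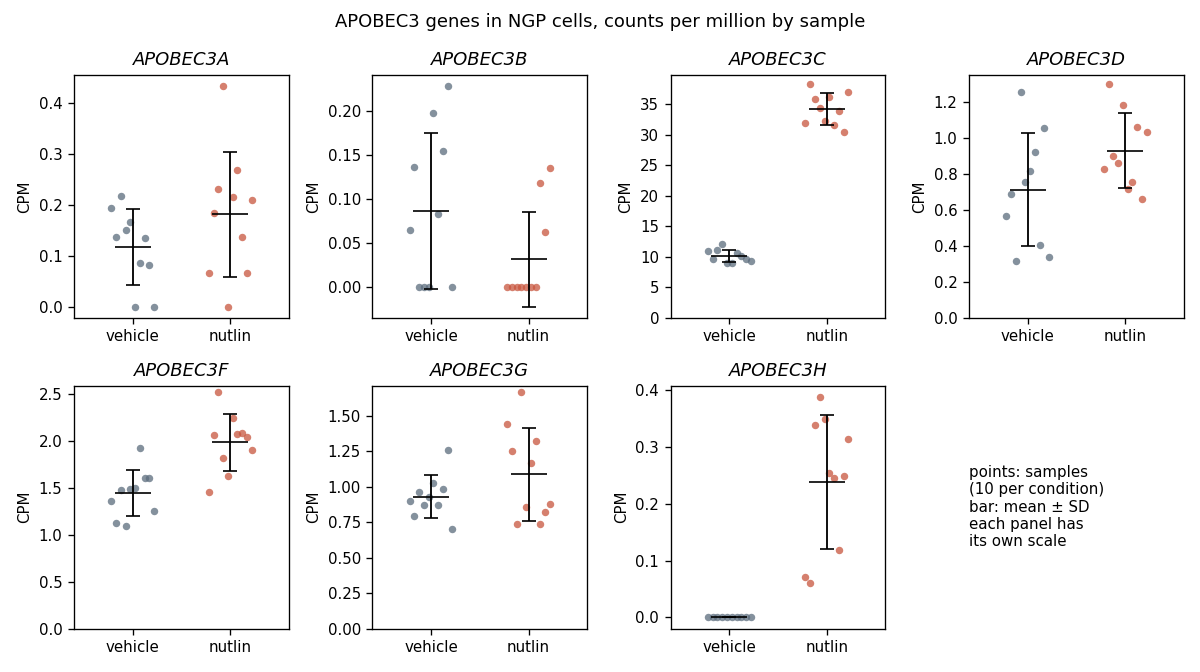
CPM of the 7 APOBEC3 genes in each of the 20 samples (points, y axis, a scale of its own per panel) for vehicle and nutlin (x axis), with the mean and SD of 10 samples. The conditions are apart in APOBEC3C (8.92 to 12.1 against 30.4 to 38.3 CPM) and in APOBEC3H (0 in every vehicle sample), and overlap in the other 5 genes.

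APOBEC3C encodes a deaminase with a single domain that acts weakly on retroviruses and on LINE-1 elements. Its estimated counts ran from 126 to 208 in the vehicle samples, with a median of 161, and from 487 to 634 in the nutlin samples, with a median of 562. Every nutlin sample was thus above every vehicle sample, as for 10.1% of the genes tested. In CPM the mean rose from 10.1 ± 1.04 to 34.2 ± 2.61 (SD, n = 10 each), a 3.37-fold increase with a 95% confidence interval of 3.10 to 3.65 (LFC 1.75, SE 0.0575, edgeR adjusted p = 4.59e-22). Of the 15813 genes at a mean of 1 CPM or more, 738 (4.67%) had a higher LFC than APOBEC3C. In such bulk RNA a larger share of cells with the transcript and more RNA per cell cannot be told apart.

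In APOBEC3F the zinc-binding stretch of the second deaminase domain is almost the same in sequence as that of APOBEC3C. APOBEC3F has a pair of such domains and is one of the members that HIV-1 Vif removes. It had 16.6 to 34.1 estimated counts in the vehicle samples (median 21.6) and 24.5 to 44.5 in the nutlin samples (median 33.3). The conditions overlapped, with 1.09 to 1.92 CPM in vehicle and 1.46 to 2.52 CPM in nutlin. The mean rose from 1.44 ± 0.248 to 1.98 ± 0.303 CPM, a 1.37-fold increase (95% confidence interval 1.13 to 1.65, LFC 0.45, SE 0.132, edgeR adjusted p = 0.00479). APOBEC3F rose less than APOBEC3C, as the ratio of both within a sample shows.

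The log2 ratio of the counts of APOBEC3C to APOBEC3F was 2.80 ± 0.308 in vehicle and 4.10 ± 0.206 in nutlin (SD, n = 10 each). The difference of 1.30 (SE 0.117) had a two-sided permutation p of 2e-05, the smallest that 100000 resamples can give, or 3e-05 after adjustment over the 3 pairs of the members APOBEC3C, APOBEC3F and APOBEC3G, which had a mean of 1 CPM or more. The ratio of APOBEC3C to APOBEC3G rose by 1.57 (SE 0.162, permutation p = 2e-05, adjusted 3e-05). For both ratios each of the 10 nutlin samples was above all vehicle samples. On transcripts of the type protein_coding alone the ratio of APOBEC3C to APOBEC3G rose by 1.68 (SE 0.590, permutation test, adjusted p = 0.0190). In that setting 4 of the 10 nutlin samples were above all vehicle samples. The ratio of APOBEC3F to APOBEC3G moved by 0.27 (SE 0.189, permutation p = 0.161, adjusted 0.161), so that a difference between these 2 genes in their change was not detected.

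APOBEC3G, the best studied restriction factor of HIV-1 in the family, had 11.7 to 18.7 estimated counts in vehicle (median 14.9) and 12.4 to 25.7 in nutlin (median 16.5). The ranges overlapped for most samples. The mean was 0.931 ± 0.151 CPM in vehicle and 1.09 ± 0.328 CPM in nutlin (LFC 0.22, SE 0.181, edgeR adjusted p = 0.351), and the 95% confidence interval of the fold ran from 0.90 to 1.5.

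APOBEC3D, another member with a pair of domains, had 4.98 to 21.5 estimated counts in vehicle (median 10.5) and 10.6 to 21.4 in nutlin (median 14.9). Its mean was 0.711 ± 0.314 CPM in vehicle and 0.929 ± 0.210 CPM in nutlin (LFC 0.38, SE 0.222, edgeR adjusted p = 0.163). The lowest nutlin sample lay within the vehicle range. When only transcripts of the type protein_coding were counted, APOBEC3D was an SDE gene (LFC 0.55, adjusted p = 0.0382), although all its own matched transcripts are of that type. That fit moved the LFC of genes at 1 CPM or more by a median of 0.164, and APOBEC3D was an SDE gene in no other fit.

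APOBEC3A and APOBEC3B are the members known for mutations in tumour genomes, and both were near the limit of detection. APOBEC3A had between 0 and 3.42 estimated counts in the vehicle samples, with 8 of 10 above 0, and between 0 and 6.71 in the nutlin samples, with 9 of 10 above 0. Its mean was 0.117 ± 0.0746 CPM in vehicle and 0.181 ± 0.124 CPM in nutlin (LFC 0.56, SE 0.488, edgeR adjusted p = 0.379). APOBEC3B had between 0 and 3.59 counts in vehicle, with 6 of 10 samples above 0, and between 0 and 2.16 in nutlin, with 3 of 10 above 0. Its mean was 0.0866 ± 0.0884 CPM in vehicle and 0.0316 ± 0.0541 CPM in nutlin, an LFC of -1.24 with an SE of 0.748 (edgeR adjusted p = 0.180).

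The 95% confidence interval of the fold of APOBEC3B, 0.147 to 1.22, reaches from a steep fall to a small rise, so that a change was not detectable at this depth. Summed as 1 gene, since their sequences overlap, APOBEC3A and APOBEC3B had an LFC of 0.08 (edgeR adjusted p = 0.912). The vehicle counts of APOBEC3B on coding transcripts came to 11.4 in total, from 5 of 10 samples, and no nutlin sample had any. Its nutlin counts, 5.16 in total, were all on a transcript annotated as a target of nonsense-mediated decay, which had 2.0 counts in vehicle. A part of DREAM in the counts of APOBEC3B was not tested. The cell cycle genes below give the scale on which a list of DREAM-bound genes moved in these cells.

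APOBEC3H, the last in the row, had an estimated count of 0 in all 10 vehicle samples. In the nutlin samples its count was between 1.0 and 6.0, with a median of 4.0, and every sample was above 0. The nutlin counts summed to 39.2, a mean of 0.239 ± 0.118 CPM (SD, n = 10). Set against a floor of 3 counts over the whole vehicle group, APOBEC3H was at least 12.6-fold higher after nutlin (two-sided permutation test of CPM, p = 2e-05, the smallest that 100000 resamples can give). Of the 44185 genes with a count in any sample, 105 (0.238%) had 0 in every vehicle sample and a count in every nutlin sample, and of the 18569 protein_coding genes 33 (0.178%). APOBEC3H was 26th of these 33 by its nutlin level.

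APOBEC3H is the member that has an entry in the RefSeq promoter table (GRCh38.p14), and the 250 bases before its RefSeq start at position 39097244 are shown because it was counted in nutlin samples only.
APOBEC3H promoter (chr22:39096994-39097243, forward strand, the last 20 bases within the gene as GENCODE draws it): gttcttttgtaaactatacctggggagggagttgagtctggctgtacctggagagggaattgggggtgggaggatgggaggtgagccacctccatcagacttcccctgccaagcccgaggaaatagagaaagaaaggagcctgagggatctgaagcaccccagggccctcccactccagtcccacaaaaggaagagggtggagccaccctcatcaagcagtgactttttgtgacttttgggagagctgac
No decamer of the p53 response element was found in the 300 bases of the table's window, on either strand, with up to 1 mismatch outside its fixed C and G. Decamers with a mismatch at that C or G were not searched for. The exact decamer was present in 6.64% of 34943 promoters of that length, and with up to 1 mismatch outside the fixed C and G in 45.1%. The element TTTGAA, a letter string found in many DREAM-bound promoters, was absent on both strands and present in 15.2% of promoters. The search covers these letters in this window and no site elsewhere in the gene.

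Levels between genes were compared in TPM, in which counts are divided by effective length and scaled to the library. In vehicle APOBEC3C was first at 4.63 ± 0.653 TPM, followed by APOBEC3F at 1.40 ± 0.487, APOBEC3G at 0.876 ± 0.191, APOBEC3D at 0.411 ± 0.185, APOBEC3A at 0.0977 ± 0.0628 and APOBEC3B at 0.0770 ± 0.0795 (SD, n = 10 each), with APOBEC3H at 0. In nutlin APOBEC3C was again first at 15.9 ± 1.46 TPM, followed by APOBEC3F at 1.87 ± 0.480, APOBEC3G at 0.969 ± 0.315, APOBEC3D at 0.526 ± 0.130, APOBEC3H at 0.427 ± 0.268, APOBEC3A at 0.153 ± 0.105 and APOBEC3B at 0.0281 ± 0.0478. Only the step from APOBEC3C to APOBEC3F had no overlap between the samples of neighbours in this order, in either condition. APOBEC3C made up 61.9% ± 6.31 of the summed TPM of the family in vehicle and 80.1% ± 2.20 in nutlin, and its share in every nutlin sample (75.1 to 82.7%) was above that in every vehicle sample (52.8 to 69.9%).

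The annotated type of the transcripts set the members apart from each other. APOBEC3C had 93.8% of its summed counts on its 1 protein_coding transcript in vehicle and 92.8% in nutlin, the rest on a transcript annotated for nonsense-mediated decay. APOBEC3F had 95.7% and 96.3% on protein_coding transcripts, and APOBEC3A and APOBEC3D 100.0% in both conditions. For APOBEC3F that type includes a transcript of 616 bases whose protein of 101 residues holds no zinc-binding stretch. Its mean was 0.841 TPM in vehicle and 1.099 in nutlin, against 0.442 and 0.615 for the transcript with 2 such stretches. In summed counts the latter led, with 163 against 56.0 in vehicle and 238 against 76.6 in nutlin. For APOBEC3D a transcript with 1 stretch had summed counts of 88.1 in vehicle and 82.0 in nutlin, against 24.7 and 68.9 with 2. By share of counts on coding transcripts APOBEC3G was the reverse, with 8.10% in vehicle and 9.25% in nutlin. It had 89.6% and 90.7% on 4 transcripts annotated as retained introns. On coding transcripts alone the mean TPM of APOBEC3G was 0.0505 in vehicle and 0.0665 in nutlin, which put it behind APOBEC3A.

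**Figure D2:**
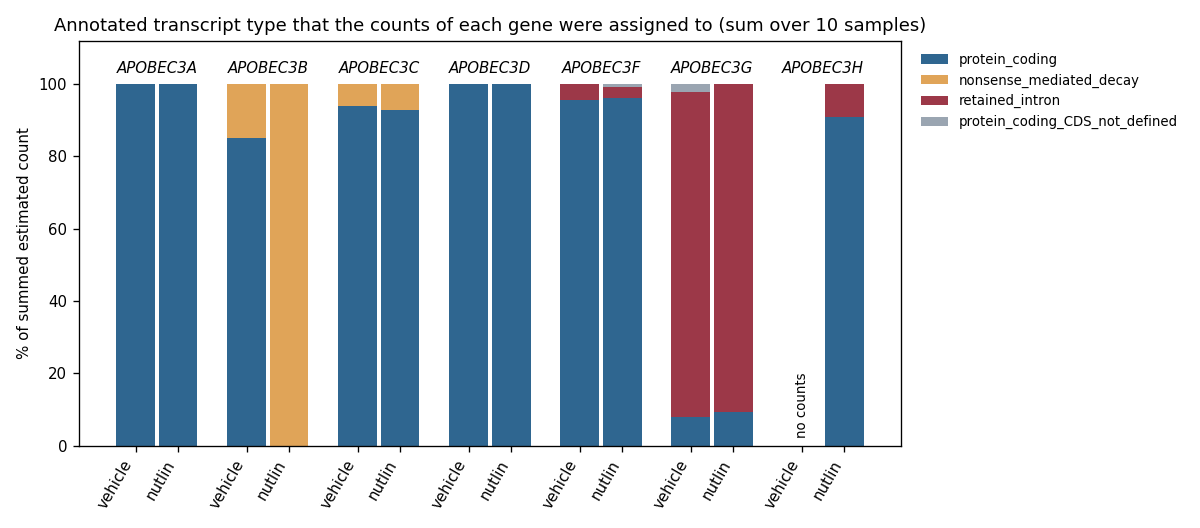
Share of the summed estimated count of each APOBEC3 gene (y axis, percent, sum over 10 samples) by annotated transcript type, in vehicle and nutlin (x axis). APOBEC3G stands out with 89.6% and 90.7% on retained introns, and the bar of APOBEC3B rests on 13.4 counts in vehicle and 5.16 in nutlin.

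Over samples, the share of counts on protein_coding transcripts was compared for the same 3 members as the ratios. It moved by -1.26 percentage points in APOBEC3C (permutation p = 0.423), by 0.56 in APOBEC3F (p = 0.828) and by 0.17 in APOBEC3G (p = 0.959), and each adjusted p was 0.959. A shift of transcript type with nutlin was not detected in these members. The rise of APOBEC3C was present on both of its transcripts, from 151 ± 22.7 to 521 ± 47.1 counts on the coding one and from 9.97 ± 7.73 to 40.7 ± 10.5 on the other.

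APOBEC3B-AS1 (chr22:38991559-38998209), an lncRNA on the reverse strand that overlaps the end of APOBEC3B, had 5.65 to 23.9 estimated counts in vehicle (median 11.3) and 10.3 to 24.4 in nutlin (median 18.7). The LFC was 0.57 (SE 0.221, edgeR adjusted p = 0.0334), and the call was lost in 8 of the 20 fits that left out 1 sample, without nutlin replicate 2, 4, 7 or 9 or vehicle replicate 3, 6, 8 or 12 (adjusted p 0.0572 to 0.0648). It was also lost with the replicate block over 16 samples (adjusted p = 0.0616) and over those samples without it (0.122). The strand setting of the counting is not given in the sources used here, so that reads from the overlap of both genes may not be told apart.

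The 5 protein_coding genes on either side of the family did not move as a block. NPTXR, which encodes a neuronal pentraxin receptor, rose from 8.98 ± 0.836 to 18.0 ± 2.06 CPM (LFC 1.0, edgeR adjusted p = 4.17e-14), and RPL3, a ribosomal protein, rose as well (LFC 0.82, adjusted p = 6.76e-16). SUN2, a protein of the nuclear envelope, fell from 135 ± 13.1 to 68.3 ± 3.45 CPM (LFC -0.98, adjusted p = 5.62e-18). SYNGR1 (LFC -0.34), GTPBP1 (-0.33), CBX6 (-0.27) and TAB1 (-0.19) also fell, but TAB1 lost the call on protein_coding transcripts alone (LFC -0.01, adjusted p = 0.826) and with the filterByExpr minimum of 10 counts (LFC -0.10, adjusted p = 0.0527). CBX7, the gene next to APOBEC3H, had an LFC of -0.48 (adjusted p = 0.0604), DNAL4 -0.12 (0.147) and PDGFB 1.62 (0.0712), and these 3 were not SDE genes. CBX7 passed without nutlin replicate 1, 3, 4 or 7 or vehicle replicate 5 (adjusted p 0.0198 to 0.0491), with the replicate block (0.0187), over the 16 samples without the block (0.0380) and with limma voom (0.0428). PDGFB passed without nutlin replicate 1 or 3 or vehicle replicate 6 or 10 (adjusted p 0.0283 to 0.0482) and on protein_coding transcripts (0.0385). The median LFC of the 10 neighbours was -0.23, against 0.22 for all genes tested and -0.08 for those at 1 CPM or more.

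**Figure D3:**
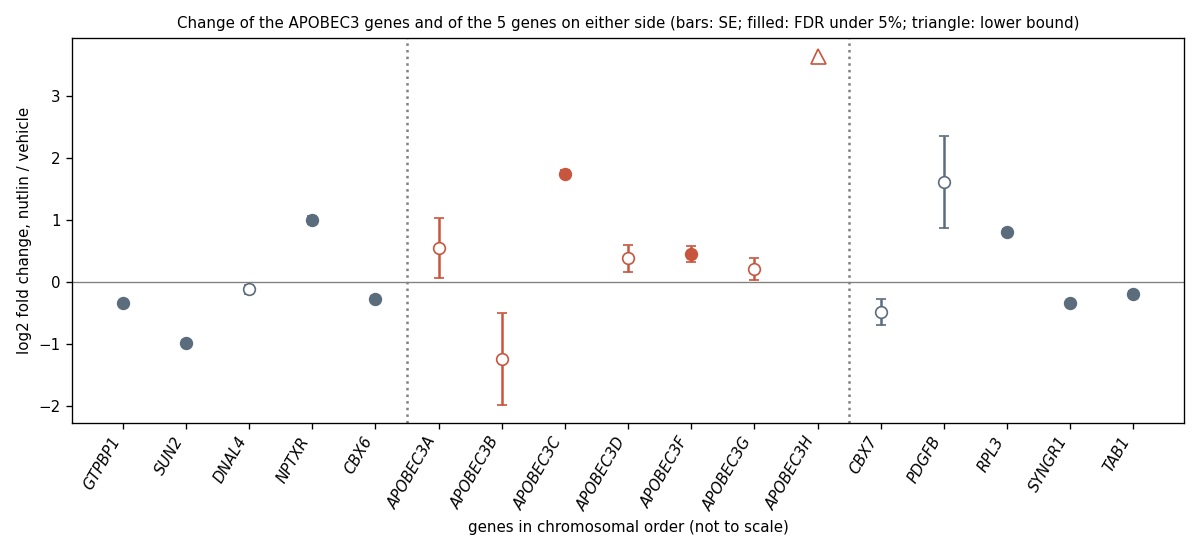
LFC with its SE (y axis, log2) for the 7 APOBEC3 genes and the 5 protein_coding genes on either side, in chromosomal order (x axis, not to scale). Filled points are SDE genes, and the triangle of APOBEC3H marks its lower bound of 3.66 against a floor of 3 counts over the vehicle group. APOBEC3C at 1.75 is above APOBEC3B at -1.24 and APOBEC3D at 0.38 on its sides, and SUN2 (-0.98) and NPTXR (1.0) moved apart.

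Of the APOBEC relatives elsewhere in the genome, APOBEC2, a relative expressed in muscle, rose from 0.231 ± 0.0753 to 1.63 ± 0.283 CPM (LFC 2.76, edgeR adjusted p = 1.22e-13), with every nutlin sample above every vehicle sample. APOBEC4, a relative of unknown activity, rose from 0.0135 ± 0.0284 to 0.177 ± 0.0636 CPM (LFC 3.18, adjusted p = 1.1e-05), also without overlap. APOBEC1, the editor of apolipoprotein B mRNA, had no count in any sample.

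Uracil that a deaminase leaves in DNA is removed by base excision repair or copied by translesion polymerases, and most genes of a list for both were lower after nutlin. Of 22 genes tested, 15 fell and 2 rose, with a median LFC of -0.40. All of them were above 1 CPM, a level at which 78.8% of genes were SDE genes in either direction, with a median LFC of -0.08. DUT, the dUTPase that keeps uracil out of new DNA, fell from 165 ± 13.8 to 22.9 ± 1.38 CPM (LFC -2.85, edgeR adjusted p = 3.13e-29). UNG, the main uracil glycosylase, fell from 129 ± 9.75 to 19.4 ± 1.35 CPM (LFC -2.73, adjusted p = 8.89e-29). FEN1, the flap endonuclease (LFC -1.62), and PARP1, which binds strand breaks (LFC -1.33), fell as well. POLH, the translesion polymerase eta, rose from 23.1 ± 1.48 to 97.2 ± 3.65 CPM (LFC 2.07, adjusted p = 4.18e-28), and REV3L, the catalytic subunit of polymerase zeta, rose from 17.3 ± 6.68 to 68.2 ± 16 CPM (LFC 1.98, adjusted p = 3.13e-12).

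Of 20 other restriction factors of retroviruses and mobile elements, 19 were tested, 8 rose and 6 fell (median LFC 0.35). Among all genes tested 27.9% rose and 21.4% fell. TRIM22, an antiviral E3 ligase, rose from 0.846 ± 0.334 to 9.33 ± 1.17 CPM (LFC 3.43, edgeR adjusted p = 1.71e-19), and MOV10, an RNA helicase that binds APOBEC3G in cells, rose from 1.82 ± 0.257 to 5.45 ± 0.688 CPM (LFC 1.58, adjusted p = 1.32e-14). Over 13 other settings the LFC ran from 1.26 to 3.52 for TRIM22 and from 0.96 to 1.67 for MOV10. Both stayed SDE genes, but the size of their rise depended on the setting. SERINC5 (LFC 0.87) and MX2 (LFC 0.35, adjusted p = 0.0103) also rose, but MX2 lost the call with an offset for effective length (adjusted p = 0.0823), with a replicate block over the 16 samples whose number occurs in both conditions (0.0657) and over those samples without the block (0.0579). The 3 subunits of ribonuclease H2, RNASEH2A (LFC -1.80), RNASEH2B (-1.37) and RNASEH2C (-0.84), and SAMHD1 (-0.43), which lowers the pool of nucleotides, fell.

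Interferon raises several APOBEC3 genes in blood cells, and the interferon-stimulated genes gave no common direction here. Of 20 genes, 19 were tested, 7 rose, 3 fell and 9 were not SDE genes, with a median LFC of 0.45. The shares among all genes tested were 27.9% higher and 21.4% lower. At a mean of 1 CPM or more, IRF7 (LFC 0.68), IRF1 (0.58), RIGI (0.45) and STAT2 (0.36), regulators and a sensor of the interferon response, rose, IRF7 not on protein_coding transcripts alone (LFC 0.55, edgeR adjusted p = 0.114). IFI6 (LFC -1.37) fell. ISG15, a gene that interferon raises strongly in most cells, was at 0.0209 ± 0.0459 CPM in vehicle and 0.0405 ± 0.0469 CPM in nutlin (edgeR adjusted p = 0.373).

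The cell cycle genes bound by DREAM and the established p53 targets moved as 2 blocks. All 20 cell cycle genes fell, with a median LFC of -2.82, among them MYBL2 and E2F1 (both -3.16), CCNB1 (-3.07) and KIF11 (-3.04). All 20 p53 targets rose, with a median LFC of 3.78, led by GDF15 (8.60), FAS (5.79), CDKN1A (5.66) and BBC3 (5.40). The LFC of APOBEC3C, 1.75, was smaller than that of all p53 targets of the list apart from BAX (1.62) and CCNG1 (0.96). BAX and CCNG1 are given for that comparison and were chosen after their values were seen.

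**Figure D4:**
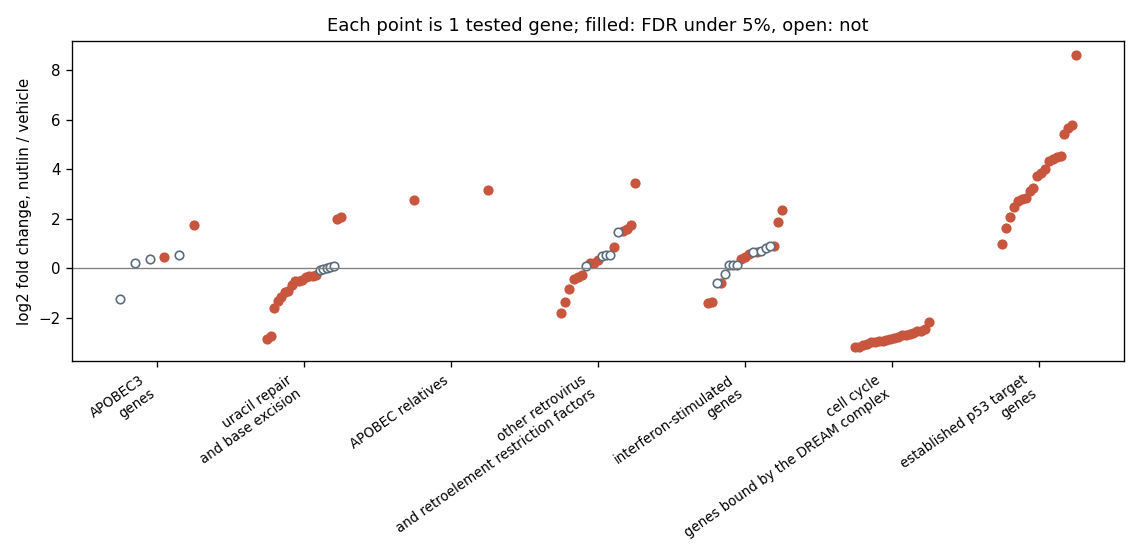
LFC (y axis, log2) of each tested gene of the APOBEC3 family and of 6 gene lists (x axis), filled where the gene was an SDE gene. The p53 targets lie above 0 and the cell cycle genes below 0 without exception, while the APOBEC3 genes run from -1.24 to 1.75.

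The samples carried the genes of an adrenergic neuroblastoma. The 9 markers of the list, among them PHOX2A, HAND2, GATA3, ISL1, TH, DBH and MYCN, were detected in every sample and summed to between 6228 and 7022 CPM in vehicle and between 5317 and 5763 CPM in nutlin. Since lymphoid and myeloid cells are rich in APOBEC3 transcripts, their markers were measured too. Of 7 lymphoid markers 4 had no count in any sample, among them CD3E, CD3D and CD2, and the list summed to between 0 and 0.312 CPM in vehicle and between 0.339 and 1.05 CPM in nutlin. MS4A1, which encodes CD20 of B cells, had 1 count over the vehicle samples, in replicate 6, and 58 over the nutlin samples, each of them above every vehicle sample (edgeR adjusted p = 5.39e-09, not tested without that replicate), while NKG7 and PTPRC did not pass the test. Of 7 myeloid markers S100A8 and S100A9 had no count in any sample, and the list summed to between 2.05 and 3.94 CPM in vehicle and between 5.71 and 9.87 CPM in nutlin. ITGAM, an integrin of myeloid cells, had 2 counts over the vehicle samples and 441 over the nutlin samples (edgeR adjusted p = 2.36e-15), and LYZ (LFC 1.12) and CSF1R (LFC 0.94, adjusted p = 0.0220) rose as well, while CD14 had an LFC of -0.93 (adjusted p = 0.0758). CSF1R lost the call without nutlin replicate 10 (adjusted p = 0.0509), over the 16 samples (0.113) and with the length offset (0.449). CD14 passed without nutlin replicate 1 (adjusted p = 0.0193), without vehicle replicate 6 (0.0181) and with the replicate block (0.0183). Both sums rose along with APOBEC3C and APOBEC3H, and their part in those changes was not tested. The 6 fibroblast markers summed to between 27.4 and 34.9 CPM in vehicle and between 41.3 and 51.9 CPM in nutlin. COL1A1 rose from 8.54 ± 1.30 to 33.4 ± 3.17 CPM (LFC 1.96, edgeR adjusted p = 8.81e-21), LUM (LFC -1.72) and PDGFRB (-0.96) fell, and the other 3 were not SDE genes. The 3 keratinocyte markers stayed below 0.826 CPM in all samples but the highest nutlin sample, which had that value.

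The genes most like a member over the 20 samples were found by the Pearson correlation of log2 CPM among 15818 genes. For APOBEC3C these were ZBTB7B, H3C15 and H3C14 (each r = 0.993), and 2102 genes had an r of at least 0.9, since the samples of each condition share the response to nutlin. After the mean of each condition was subtracted, the closest were ZNF747 (r = 0.776), SH3BP5-AS1 (0.722) and GPR157 (0.698). For APOBEC3F the closest over all samples were ENSG00000258674 (r = 0.852), IGFL4 (0.849) and TCTA (0.844), and within conditions PTPN1 (0.746), SELENOO (0.745) and TCTA (0.681). For APOBEC3G they were ENSG00000291202 (0.704), TPCN1 (0.676) and ENSG00000253596 (0.668), and within conditions SUGP2 (0.771), C14orf132 (0.756) and ENSG00000291202 (0.756). Within conditions the r was 0.03 between APOBEC3C and APOBEC3F, -0.02 between APOBEC3C and APOBEC3G and -0.13 between APOBEC3F and APOBEC3G. With at most 44.5 counts of APOBEC3F and 25.7 of APOBEC3G in a sample, counting error can hide a shared course, so these r cannot show whether the members follow each other. The closest genes have the highest of 15818 values, so that their r alone does not show a shared course either. These values describe 20 samples of 1 cell line at like depth and carry no test.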

How the data were processed

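The 20 samples of NGP cells were grouped by the treatment and replicate number of their labels. The authors quantified read pairs from a stranded poly(A) library (100 ng of RNA) with kallisto 0.42.4 on transcripts of GRCh38 (Ensembl release 85), per the labels and the study's methods. The deposited estimated counts are the read pairs that the authors' kallisto runs shared out among 198968 transcripts, with no normalization. The deposited TPM values are those counts, scaled by the authors' kallisto runs by effective length and library. Effective lengths, in bases, come from the same runs and entered 1 alternative only.

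Transcripts were matched to GENCODE release 44, and 191106 (96.05%) were found, while 7862 were left out. The estimated counts were summed per gene, rounded and tested with edgeR 4.0.16 (TMM, quasi-likelihood F-test, condition as the only term) in R 4.3.3, for all genes with a sum of 1 or more in each condition, at an FDR of 5%. Ratios (0.5 added to each count) and shares were compared by two-sided permutation tests with 100000 resamples. A floor of 3 counts over the group stood in for 0, and floors and intervals of counts cover counting error only. DESeq2 1.42.0 and limma 3.58.1 served as alternatives. Code was tested on simulated data. Sequences were read from GENCODE and RefSeq (GRCh38.p14). Python 3.11.15, scipy 1.17.1 and matplotlib 3.10.9 were used for the rest.

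The members and the gene lists were chosen with earlier results of these data known. Of each list, genes called at a mean of 1 CPM or more were named, up to 4 in each direction, as well as the relatives and neighbours, MDM2 and CDKN1A, and the 3 genes most like each member at that level. APOBEC3B-AS1 and the read-through gene were added for their overlap with members, and ISG15, CD3E, CD3D, CD2, S100A8, S100A9, the other markers given, BAX and CCNG1 were named after their values were seen. DDX58 is given as RIGI, its symbol in the annotation. Some genes of the lists are not reported here by name.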

Additional observations from a re-analysis of the deposited data

How the results depend on the processing

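The LFC of APOBEC3C and APOBEC3F kept their direction and stayed SDE in all 13 other settings and in all 20 fits that left out 1 sample. APOBEC3C ran from 1.74 to 1.90 over the former and from 1.73 to 1.79 over the latter, and APOBEC3F from 0.42 to 0.63 (adjusted p at most 0.0284) and from 0.40 to 0.51 (at most 0.0130). APOBEC3A, APOBEC3B and APOBEC3G kept their direction and did not pass in any fit that gave them a value. The adjusted p of APOBEC3B without 1 sample reached down to 0.0816. APOBEC3H, tested only without the filter on low counts, had an LFC from 2.89 to 5.20 over 4 other settings (adjusted p at most 1.3e-06). APOBEC3D passed when only protein_coding transcripts were counted (LFC 0.55, adjusted p = 0.0382) and in no other fit, with an adjusted p up to 0.665. That setting, which tests fewer genes, gave 11459 SDE genes, 6059 of them higher, and shifted the LFC of genes at 1 CPM or more by a median of 0.164. It turned DNAL4 to an LFC of 0.080 and gave a mean TPM of 3.88 in vehicle and 12.9 in nutlin for APOBEC3C, and of 0.0505 and 0.0665 for APOBEC3G. Counted in TPM, the share of APOBEC3F on coding transcripts moved by -0.76 percentage points (adjusted p = 0.873), against 0.56 in counts. The minimum counts of filterByExpr left 1 APOBEC relative and 4 interferon-stimulated genes called higher. With that filter, or with 1 count in every sample, 4 uracil repair genes were called higher. Of the values of the genes chosen by the naming rule, and of 8 markers named after their values were seen, over all fits, 1617 kept direction and call, 27 passed where they had not, 22 lost the call and 1 turned.

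The replicate numbers did not pair the samples. Over 8 numbers present in both conditions, deviations from the condition means correlated between -0.0474 and 0.0575. With the replicate block over these 16 samples 15596 genes were SDE genes, against 16168 over the same samples without it and 17734 over all 20 samples, and the call of no APOBEC3 gene changed (APOBEC3C 1.74, APOBEC3F adjusted p = 0.0225). At this depth the members other than APOBEC3C, with at most 44.5 counts in a sample, limit the precision.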

Other observations

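The 33 protein_coding genes that, like APOBEC3H, had no count in any vehicle sample and a count in every nutlin sample were ranked by their nutlin level. The 5 highest were CSTA, which encodes the protease inhibitor cystatin A (2.90 ± 0.964 CPM, SD, n = 10), DNAI3, a dynein component (2.57 ± 0.369), KDM4E (1.91 ± 0.311), CD274, which encodes the immune checkpoint ligand PD-L1 (1.61 ± 0.427), and SCN4B, a sodium channel subunit (1.43 ± 0.366). TNF, the inflammatory cytokine, was 20th at 0.280 ± 0.153 CPM and APOBEC3H 26th at 0.239 ± 0.118 CPM. TNF was picked out after its value was seen.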
